A study of Mus musculus with 4 samples.

Results

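The nuclear genes that encode the subunits of the oxidative phosphorylation complexes were examined in mouse embryonic stem cells (mESCs) with and without the chromatin remodeler ATPase SNF2L. Genes were chosen by name. A protein-coding gene was taken when its symbol begins with Ndufa, Ndufb, Ndufc, Ndufs, Ndufv, Uqcr or Atp5, is Sdha to Sdhd, or begins with Cox4 to Cox8. Assembly factors and Ndufa4l2 were left out, and at least 10 read counts were required in each of the 4 libraries. Of 24594 genes in the count table, 85 protein-coding rows carried such a name and 79 met the count minimum. These 79 genes lie on 19 chromosomes. Complex I (NADH dehydrogenase) is represented by 36 genes, complex II (succinate dehydrogenase) by 4, complex III (cytochrome c reductase) by 8, complex IV (cytochrome c oxidase) by 14 and complex V (ATP synthase) by 17. Ndufa4 was counted with complex IV, where its protein resides, in spite of its name. The 3 genes on chromosome 8, Cox4i1, Ndufb7 and Ndufa13, were set apart from the other 76, because most chromosome 8 genes were lower in the knockout libraries.

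Complexes I and II pass electrons from NADH and succinate to ubiquinone, complex III passes them on to cytochrome c, and complex IV reduces oxygen. Complexes I, III and IV pump protons across the inner mitochondrial membrane, and complex V uses the resulting gradient to make ATP. Most subunits are encoded in the nucleus, while a small set comes from the mitochondrial genome. Several nuclear subunits have alternative isoforms that are used in particular tissues, such as heart and skeletal muscle. ESCs rely strongly on glycolysis but also respire.

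Poly(A) RNA of untreated mESCs of 129S6/SvEvTac background was sequenced from 2 wild-type (WT) libraries and 2 libraries of cells in which Snf2l was knocked out (Snf2l KO). Smarca1 is the official symbol of Snf2l. SNF2L is 1 of the alternative motor subunits of ISWI remodeling complexes, which move nucleosomes along DNA. According to the study's methods, each deleted line is a single clone obtained with Cas9, so the effects of genotype and clone cannot be told apart. The labels do not say that the libraries of a genotype came from separate cultures. P-values therefore measure the spread between these libraries, which may be technical, although the methods speak of independent replicates. The libraries held between 13771642 and 15608803 counts. The targeted gene Smarca1 was lost, with 620 and 626 counts in the WT and 37 and 31 in the Snf2l KO libraries (log2 fold change -4.30, SE 0.159). All 8 of the listed ESC markers passed the expression filter, and their summed level lay between 4379 and 4795 CPM (read counts scaled to a common library total) in the 4 libraries. Of the 8, Klf4 was called higher (log2 fold change 0.34, adjusted p = 0.0359) and Zfp42, on chromosome 8, lower (-0.60, adjusted p = 3.80e-04).

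NRF1 (nuclear respiratory factor 1), GABPA and other ETS factors, and YY1 are established activators of respiratory genes. Promoter windows from RefSeq (GRCm38.p6), running from 250 bases before to 50 bases after an annotated start, were given for 67 of the 79 genes, as 72 windows. The NRF1 core GCATGCGC (reverse complement GCGCATGC) occurred on either strand in 10 of the 72 windows (13.9%), against 2.71% of all 32851 windows and 5.11% of the 13944 windows of genes that passed the expression filter. The ETS motif CCGGAAG (reverse complement CTTCCGG) occurred in 17 windows (23.6%), against 8.86% of all windows and 16.61% of those of tested genes. The YY1 motif AAGATGGCG (reverse complement CGCCATCTT) occurred in 7 windows (9.7%), against 1.4% and 2.78%. At least 1 of these 3 motifs was present in 28 windows (38.9%), against 12.1% of all windows and 22.7% of those of tested genes. The SP1 motif GGGCGG, at 40.3% of the windows, lay between its share of all windows (35.66%) and that of tested genes (62.06%). The TATA box letters TATAAA occurred in 7 windows (9.7%), against 13.62% of all windows and 7.16% of those of tested genes. Matches are exact and describe the letters of these windows only.

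The following 4 windows are shown for the genes that the later comparisons turn on and for the arrangement of the motifs. Ndufv3 and Ndufb7 were called as differing between genotypes, whereas Cox6a1 and Uqcr11 were chosen after their values were seen, because their windows hold both an ETS and an NRF1 match. Each is written 5′ to 3′ on the strand of the gene, with NRF1, ETS and YY1 matches in capitals.
Ndufb7 promoter window, chr8:83566508-83566807, plus strand: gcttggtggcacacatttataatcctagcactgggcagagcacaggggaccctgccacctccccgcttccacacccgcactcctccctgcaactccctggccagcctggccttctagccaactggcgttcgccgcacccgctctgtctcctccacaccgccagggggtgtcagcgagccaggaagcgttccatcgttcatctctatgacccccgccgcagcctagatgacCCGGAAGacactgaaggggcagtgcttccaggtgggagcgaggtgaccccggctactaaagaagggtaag
Ndufv3 promoter window, chr17:31519865-31520164, plus strand: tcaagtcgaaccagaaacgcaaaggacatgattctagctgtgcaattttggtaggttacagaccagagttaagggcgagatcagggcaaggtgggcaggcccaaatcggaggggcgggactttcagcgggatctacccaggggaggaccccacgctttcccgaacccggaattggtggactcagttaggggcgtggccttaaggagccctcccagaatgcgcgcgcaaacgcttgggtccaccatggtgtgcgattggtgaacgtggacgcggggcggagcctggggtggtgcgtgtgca
Cox6a1 promoter window, chr5:115348909-115349208, minus strand: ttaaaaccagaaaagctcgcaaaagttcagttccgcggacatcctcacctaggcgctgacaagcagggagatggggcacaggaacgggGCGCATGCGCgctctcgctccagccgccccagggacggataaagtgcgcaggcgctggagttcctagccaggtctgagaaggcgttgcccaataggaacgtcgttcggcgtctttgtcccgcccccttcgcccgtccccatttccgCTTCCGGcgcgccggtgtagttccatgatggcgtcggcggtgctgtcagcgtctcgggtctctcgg
Uqcr11 promoter window, chr10:80406772-80407071, minus strand: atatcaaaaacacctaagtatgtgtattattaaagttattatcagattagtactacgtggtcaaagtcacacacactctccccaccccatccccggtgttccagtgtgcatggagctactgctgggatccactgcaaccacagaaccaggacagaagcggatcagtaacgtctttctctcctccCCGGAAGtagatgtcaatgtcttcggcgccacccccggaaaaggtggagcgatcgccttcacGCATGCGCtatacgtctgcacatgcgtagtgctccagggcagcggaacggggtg

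The Ndufb7 window carried an ETS match at position -20 relative to the annotated start, and the Ndufv3 window carried none of the 3 motifs. The Cox6a1 window held overlapping NRF1 matches on both strands, at positions -162 and -160, and an ETS match on the reverse strand at -16. In the Uqcr11 window the ETS match began at -66 and the NRF1 match at -4. Cox4i1 was among the 12 genes with no window in the table.

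The level of the subunit genes in WT was examined per length, as CPM divided by the gene length in kb that the authors gave for each gene. The median level per kb of the subunit genes was 59.4 in WT, against 5.75 over the 13840 genes tested. The complexes had similar medians, which were 54.5 for complex I, 72.0 for complex II, 89.1 for complex III, 102 for complex IV and 65.4 for complex V. Within a complex the spread was wider. In complex I, the lowest counted level per kb was 3.14, for Ndufs5, whose reads cannot be assigned with certainty because of a near-identical copy. The 4 subunits of succinate dehydrogenase lay between 50.6 (Sdhb, the iron-sulfur subunit) and 110 (Sdhd, a membrane anchor). In complex III, Uqcrq was lowest at 47.8 and Uqcr10 highest at 177. Cox4i1, a regulatory subunit of complex IV, reached 398, and Cox6b2, known for its expression in testis, stood at 5.40. Atp5b and Atp5a1, which encode the catalytic beta and the alpha subunit of the ATP synthase head, were the most abundant of all 79 genes at 700 and 576 CPM per kb. The lowest was Atp5g2, at 1.75, which encodes the same c-ring subunit as the far more abundant Atp5g3.

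**Figure D1:**
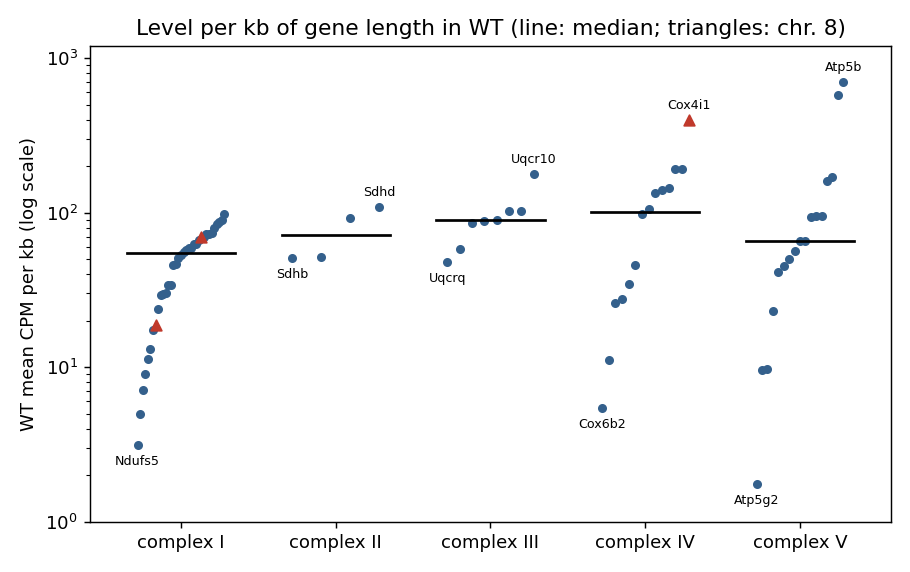
WT mean level of 78 of the 79 genes in CPM per kb of gene length, on a log scale, grouped by complex I to V; each point is a gene, lines are medians of all genes of a complex and triangles mark the 3 chromosome 8 genes. Medians lie between 54.5 (complex I) and 102 (complex IV), and the genes within complex V run from 1.75 (Atp5g2) to 700 (Atp5b).

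The subunit genes took a similar share of the transcriptome in both genotypes. Together they held 1.28% and 1.39% of the counts in the WT libraries and 1.32% and 1.46% in the Snf2l KO libraries. Their summed level was 12923 and 13933 CPM in WT and 13123 and 14509 CPM in Snf2l KO, so that the ranges overlapped and the ratio of the means was 1.029. In bulk RNA, a difference in the share of cells of a type and a difference in RNA per cell cannot be told apart. Set apart, the 76 genes off chromosome 8 had a ratio of 1.044 and the 3 genes on it a ratio of 0.794. By complex and without the chromosome 8 genes, the ratio was 1.079 for complex I, 1.032 for II, 0.992 for III, 1.071 for IV and 1.034 for V. With Ndufb7 and Ndufa13 included the ratio of complex I was 1.064, and with Cox4i1 included that of complex IV was 0.979. The summed levels per library overlapped between genotypes in each of the 5 complexes, with and without the chromosome 8 genes. Off chromosome 8, complex I gave 2654 and 2880 CPM in WT and 2779 and 3192 CPM in Snf2l KO. Complex V gave 6416 and 6832 CPM in WT and 6591 and 7106 CPM in Snf2l KO.

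To ask which single subunit genes differ between the Snf2l KO and WT libraries, all 13840 tested genes were fitted with edgeR's quasi-likelihood test. Benjamini-Hochberg adjustment covered all of them. At an adjusted p under 0.05, 1 of the 79 genes was higher in Snf2l KO (1.27%, against 4.0% of all tested genes) and 2 were lower (2.53%, against 5.21%). None was a DEG by the threshold of the study (adjusted p under 0.01 and over 2-fold), which 0.990% of tested genes met. Both lower genes lie on chromosome 8. Off chromosome 8, Ndufv3 was called higher among 76 genes (1.32%, against 4.17% of tested genes off chromosome 8) and 0 were called lower, where the background was 2.05%. In this set 10 of the 76 genes (13.2%) had an unadjusted p under 0.05, against 2489 of the 13086 tested genes off chromosome 8 (19%). These shares are also the background for the single complexes below. With so few genes in a complex, 0 calls are not a result about that complex. DESeq2 made the same calls for the 79 genes. The count of higher genes rested on the libraries used and on the terms of the fit. With the replicate number added as a block, 22 of the 79 genes were called higher. That was a larger share than among all tested genes, but the block left 1 residual degree of freedom. With 1 library left out, the median log2 fold change of the 76 genes ranged from -0.032 to 0.185.

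**Figure D2:**
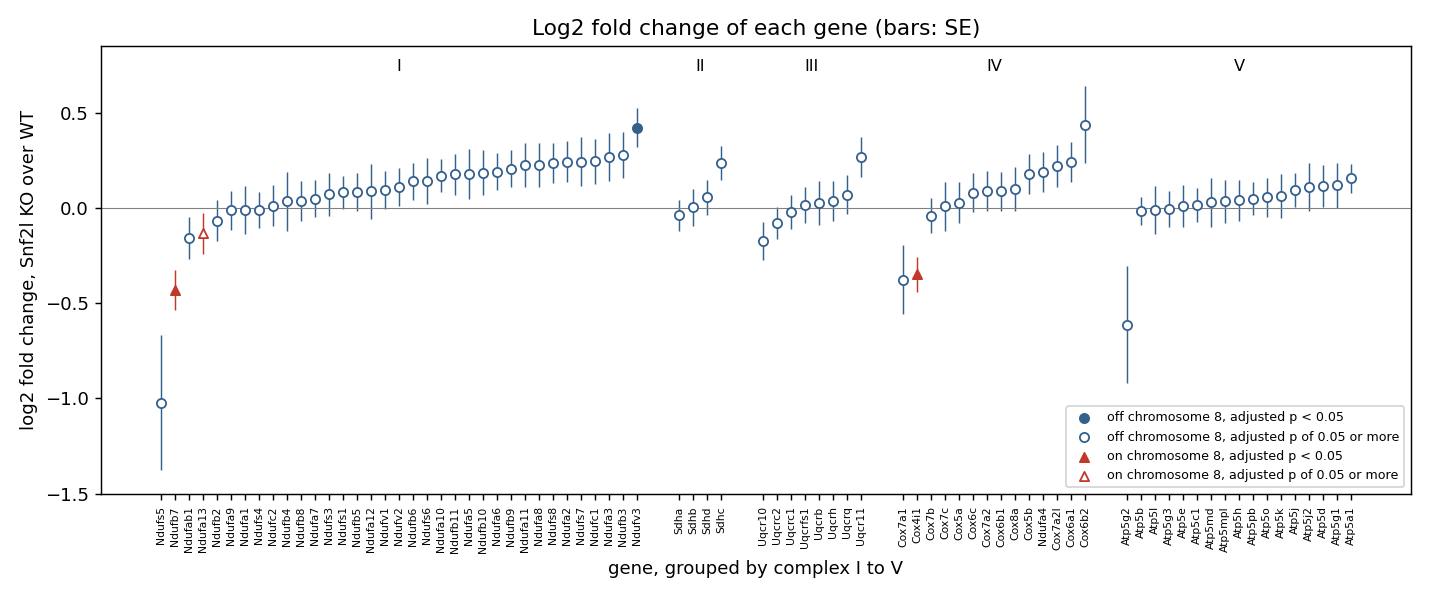
Log2 fold change of Snf2l KO over WT for 78 of the 79 genes, grouped by complex and sorted within it; bars are SE, filled symbols mark an adjusted p under 0.05 and triangles mark chromosome 8. Ndufv3 (0.42) is the filled circle, Ndufb7 (-0.43) and Cox4i1 (-0.35) are the filled triangles, and most other genes lie close to 0.

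Ndufv3 (Entrez gene 78330, chromosome 17, 31520115 to 31531326) encodes an accessory subunit of the NADH-binding module of complex I. It was at 40.6 and 42.5 CPM in WT and at 52.4 and 59.0 CPM in Snf2l KO, so both Snf2l KO libraries lay above both WT libraries. Its mean rose from 41.5 ± 1.31 to 55.7 ± 4.64 CPM (SD, n = 2 each), 1.34-fold. The log2 fold change was 0.42 (SE 0.104, 95% interval 0.20 to 0.64, adjusted p = 0.0178). The call depended on the libraries used. Without WT replicate 1 the log2 fold change was 0.39 (adjusted p = 0.161), without WT replicate 2 it was 0.45 (adjusted p = 0.0754), and without Snf2l KO replicate 2 it was 0.33 (adjusted p = 0.0631). Other subunits of the same module were not called. Ndufv1, Ndufv2 and Ndufs1 had log2 fold changes of 0.09 (SE 0.098), 0.11 (SE 0.101) and 0.08 (SE 0.085). Ndufa2 was at 53.1 and 59.2 CPM in WT and 60.9 and 72.0 CPM in Snf2l KO, without overlap (0.24, SE 0.108, unadjusted p = 0.0417, adjusted p = 0.203). Ndufs4, Ndufs6 and Ndufa12 overlapped between genotypes, with log2 fold changes of -0.01 (SE 0.097), 0.14 (SE 0.120) and 0.09 (SE 0.146).

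The chromosome 8 genes were read against their chromosome. Of the 754 chromosome 8 genes tested, 60.1% were called lower in Snf2l KO, and in 86.5% both Snf2l KO libraries lay below both WT libraries. Their median log2 fold change was -0.51, that is 0.704 of the WT level. The part of this shift in the values of the 3 subunit genes was not tested gene by gene, but all 3 fold changes were closer to 0 than that median.

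Cox4i1 (Entrez gene 12857, 120668225 to 120674209) encodes the ubiquitous isoform of subunit 4 of cytochrome c oxidase. It was at 583 and 650 CPM in WT and at 450 and 518 CPM in Snf2l KO, with no overlap. Its mean of 617 ± 46.9 CPM in WT fell to 484 ± 48.5 CPM (SD, n = 2 each). The log2 fold change was -0.35 (SE 0.093, 95% interval -0.55 to -0.15, adjusted p = 0.0277). This was 0.156 above the median of the chromosome, and 74.7% of the chromosome 8 genes had a lower fold change. Ndufb7 (Entrez gene 66916, 83566758 to 83571623), an accessory subunit of the membrane arm of complex I, was at 79.0 and 91.2 CPM in WT and at 58.8 and 67.5 CPM in Snf2l KO. Again the genotypes did not overlap. The log2 fold change was -0.43 (SE 0.106, 95% interval -0.66 to -0.21, adjusted p = 0.0178), and 64.1% of the chromosome 8 genes were lower still.

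Ndufa13 (Entrez gene 67184, 69894163 to 69902558), another accessory subunit of complex I, was not called. It was at 82.1 and 91.4 CPM in WT and at 71.4 and 86.9 CPM in Snf2l KO, so the ranges overlapped. Its log2 fold change was -0.13 (SE 0.109, 95% interval -0.37 to 0.10, adjusted p = 0.524), higher than that of 89.9% of the chromosome 8 genes. Of its exon bases, 30% are shared with Tssk6 on the opposite strand, and the sources neither agree on a stranded kit nor say whether counting used strand. No exon overlap was found for Cox4i1, Ndufb7 or Ndufv3. In a further fit the chromosome 8 shift was removed from the genes of that chromosome. This shift is the chromosome 8 median minus the median of all other tested genes. The log2 fold changes became 0.169 for Cox4i1 (adjusted p = 0.348), 0.088 for Ndufb7 (adjusted p = 0.715) and 0.385 for Ndufa13 (adjusted p = 0.0587). Cox4i1 was no longer called without WT replicate 2 (-0.27, adjusted p = 0.309), without Snf2l KO replicate 1 (-0.25, adjusted p = 0.0674) or with upper-quartile scaling (-0.32, adjusted p = 0.0566). Ndufb7 was no longer called without WT replicate 2 (-0.325, adjusted p = 0.234).

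**Figure D3:**
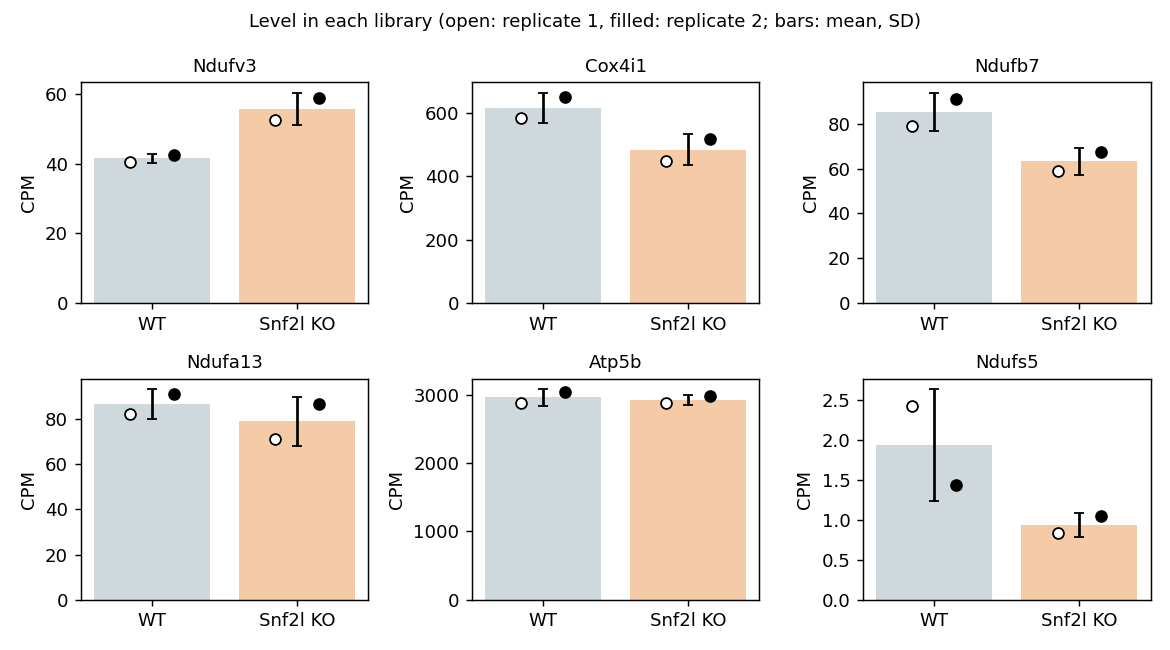
Level in CPM in each library for 6 genes; open points are replicate 1, filled points replicate 2, bars the mean and error bars the SD of 2 libraries. Ndufv3 is higher in both Snf2l KO libraries, Cox4i1 and Ndufb7 are lower in both, and Ndufa13 and Atp5b overlap. Ndufs5, which has a near-identical copy, has the lowest counted level, at 0.829 to 2.42 CPM.

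In complex I, Ndufv3 was the 1 gene called among the 34 off chromosome 8. The median log2 fold change of the 34 was 0.125, with 28 positive and 6 negative values. In 13 of the 34 (38.2%) both Snf2l KO libraries lay above both WT libraries, against 26.5% of tested genes off chromosome 8. The Snf2l KO libraries lay below in 2 (Ndufs5 and Ndufab1), where the background was 21.8%. Ndufb3 and Ndufs8 had unadjusted p-values under 0.05 and were named after their values were seen. Ndufb3, an accessory subunit of the membrane arm, was at 42.7 and 47.9 CPM in WT and 48.1 and 61.9 CPM in Snf2l KO (log2 fold change 0.28, SE 0.123, adjusted p = 0.196). Ndufs8, an iron-sulfur subunit of the catalytic core, was at 41.9 and 46.4 CPM in WT and 49.8 and 54.3 CPM in Snf2l KO (0.24, SE 0.104, adjusted p = 0.197). Ndufs1, the largest subunit of the complex and part of its catalytic core, was at 343 and 351 against 352 and 382 CPM (0.08, SE 0.085).

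Ndufs5, an accessory subunit of complex I, had the largest fold change in either direction of the 79 genes and the fewest counts. Its counts were 33 and 22 in WT and 13 and 16 in Snf2l KO, and the log2 fold change was -1.02 (SE 0.356, 95% interval -1.78 to -0.26, adjusted p = 0.0925). With the replicate number added to the fit as a block, Ndufs5 was called lower. Reads of this gene cannot be assigned with certainty, because a near-identical copy of the transcript exists elsewhere in the genome. The row named Ndufs5-ps, which is not protein-coding, had 215 and 278 counts in WT and 254 and 298 in Snf2l KO (log2 fold change 0.07, SE 0.136). Ndufs5 thus took 20.0% and 11.4% of the level per kb of the pair in WT, and 7.68% and 8.02% in Snf2l KO. Near-identical copies, defined by at least 95% identity over 300 bases, were found for 12 of the 77 genes matched to a coding transcript, among them Atp5l with 9 copies and Atp5h and Uqcrb with 3 each. How the authors' counting divided reads among such copies is not given in the sources used here.

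Succinate dehydrogenase is also an enzyme of the citric acid cycle, and all 4 of its subunits are encoded in the nucleus. None of the 4 was called. Sdha, the flavoprotein, was at 385 and 377 CPM in WT and at 362 and 379 CPM in Snf2l KO (log2 fold change -0.04, SE 0.083). Sdhb was at 108 and 118 against 107 and 120 CPM (0.002, SE 0.097), and Sdhd at 129 and 141 against 134 and 146 CPM (0.05, SE 0.093). These 3 overlapped between genotypes. Sdhc, a membrane anchor, did not, with 166 and 170 CPM in WT and 189 and 206 CPM in Snf2l KO (0.24, SE 0.089, unadjusted p = 0.0183, adjusted p = 0.124).

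In complex III, 0 of 8 genes were called, 1 (Uqcr11) had an unadjusted p under 0.05, and the median log2 fold change was 0.020. Uqcrc1 and Uqcrc2 encode the core proteins, which are related to mitochondrial processing peptidases. Uqcrc1 was at 337 and 371 CPM in WT and 338 and 359 CPM in Snf2l KO (-0.02, SE 0.088). Uqcrc2 was lower in both Snf2l KO libraries, at 255 and 270 against 251 and 246 CPM (-0.08, SE 0.085, adjusted p = 0.653), and shares 26.6% of its exon bases with Pdzd9 on the opposite strand. Uqcrfs1, the Rieske iron-sulfur protein, had a log2 fold change of 0.01 (SE 0.094). The small subunits went in different directions without being called. Uqcr10 was at 96.2 and 111 CPM in WT and 90.4 and 93.4 CPM in Snf2l KO (-0.17, SE 0.098, adjusted p = 0.329), whereas Uqcr11 was at 53.6 and 59.7 against 63.4 and 72.8 CPM (0.26, SE 0.105, adjusted p = 0.146). Uqcrq, the least abundant per kb, was at 81.9 and 93.2 against 86.4 and 97.3 CPM (0.07, SE 0.102).

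Complex IV holds most of the alternative isoforms. Off chromosome 8, 0 of its 13 genes were called, 2 (Cox6a1 and Cox6b2) had an unadjusted p under 0.05, and the median log2 fold change was 0.088. The ubiquitous isoform was dominant in both genotypes for subunits 4, 6a, 6b, 7b and 8. Counted per kb, Cox6a1 made up at least 99.9% of Cox6a1 and Cox6a2 in each library, and Cox6b1 between 96.3% and 97.6% of the Cox6b pair. The muscle isoforms Cox6a2 and Cox8b failed the count minimum, with 0 to 3 counts and with 0 counts in each library. Cox7b2 and Cox8c, known from testis, also failed it, with 5 to 11 and 4 to 12 counts, and Ndufb4c had 1 count in a single library.

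Cox4i2, a hypoxia-linked isoform of subunit 4, failed the count minimum in the WT libraries but passed the expression filter of the fit. It had 9 and 7 counts in WT and 15 and 23 in Snf2l KO (log2 fold change 1.13, SE 0.424, adjusted p = 0.122), which was 0.222% and 0.138% of the subunit 4 level per kb in WT and 0.416% and 0.565% in Snf2l KO. Cox4i1 thus made up between 99.4% and 99.9% of the pair. Cox6a1 was at 129 and 142 CPM in WT and at 144 and 175 CPM in Snf2l KO (0.24, SE 0.104, adjusted p = 0.184). The subunit 7a set was more evenly divided. Cox7a2 took 77.6% to 79.1% of it per kb and Cox7a2l, which helps to form supercomplexes, took 14.5% to 16.7%. Cox7a1, the heart and muscle isoform, made up 6.50% and 6.38% in WT and 5.33% and 4.12% in Snf2l KO. Its counts were 76 and 96 in WT and 76 and 66 in Snf2l KO (log2 fold change -0.38, SE 0.181, adjusted p = 0.240).

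Of the 6 cardiac and skeletal muscle markers listed, 2 passed the expression filter and 0 were called. Cox6b2 had the highest positive fold change of the 79 genes, from 68 and 107 counts in WT to 107 and 146 in Snf2l KO, with overlap between genotypes (0.44, SE 0.202, adjusted p = 0.222). Ndufa4 was at 138 and 155 CPM in WT and 152 and 182 CPM in Snf2l KO (0.19, SE 0.104, adjusted p = 0.310). Its hypoxia-linked paralog Ndufa4l2 is not a member of the set. It had 5 and 8 counts in WT and 31 and 31 in Snf2l KO, a rise of 2.13 on the log2 scale (SE 0.374, adjusted p = 1.95e-03), and its share of the pair per kb was 0.335% and 0.423% in WT and 1.61% and 1.38% in Snf2l KO.

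In complex V, 0 of 17 genes were called, none had an unadjusted p under 0.05, and the median log2 fold change was 0.039. Atp5b (Entrez gene 11947, chromosome 10, 128083307 to 128090388), the most abundant gene of the set, was at 2880 and 3049 CPM in WT and 2879 and 2981 CPM in Snf2l KO. The genotypes overlapped closely, at means of 2964 ± 120 and 2930 ± 72.2 CPM (SD, n = 2 each), and the 95% interval of the log2 fold change (-0.02, SE 0.075) ran from -0.18 to 0.14. Atp5a1 was at 1772 and 1840 CPM in WT and 1930 and 2090 CPM in Snf2l KO, without overlap (0.15, SE 0.078, adjusted p = 0.267). The c-ring subunit is encoded by 3 genes that yield the same mature protein. With the lengths given by the authors, Atp5g3 took 92.9% to 93.4% of their level per kb, Atp5g1 5.42% to 6.28% and Atp5g2 0.400% to 1.20%. The length given for Atp5g1, 4912 bp, exceeds its RefSeq span (chromosome 11, 96072793 to 96075694). Its share per kb may therefore be too low and those of the other genes too high. Atp5g1 also has 1 near-identical copy, so its reads cannot be assigned with certainty. Atp5g3 was at 336 and 361 against 319 and 375 CPM (-0.01, SE 0.095), and Atp5g1 at 43.9 and 52.0 against 47.4 and 56.9 CPM (0.12, SE 0.118). The counts of Atp5g2 were 45 and 39 in WT and 40 and 19 in Snf2l KO (-0.61, SE 0.309, adjusted p = 0.264). Its single low value came from Snf2l KO replicate 2.

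Most subunit genes were deeply covered. Of the 79 genes, 65 had at least 500 counts in each library, and the median SE was 0.105 on the log2 scale. For 71 of the 76 genes off chromosome 8, the 95% interval of the difference lay within 1.5-fold in either direction, and for 74 within 2-fold. The 5 exceptions to the narrower limit were Ndufv3 and the low-count genes Ndufs5, Cox7a1, Cox6b2 and Atp5g2. In counts simulated from these libraries, edgeR's quasi-likelihood test recovered 77.0% of genes changed by 0.5 on the log2 scale and 100 of 100 genes changed by 1. It also called 6 unchanged genes. The changed genes were drawn from those with a mean above 100 counts, and all genes were given the same dispersion. No shift between replicates was simulated, so the recovery in the real libraries may be lower.

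Across the 76 genes off chromosome 8, the median log2 fold change was 0.076 (1.054-fold), against 0.013 for all tested genes off chromosome 8, with 60 positive and 16 negative values. In 19 of the 76 (25.0%) both Snf2l KO libraries lay above both WT libraries, close to the 26.5% of tested genes off chromosome 8, and in 5 (6.58%) they lay below, against 21.8%. The median rested on which libraries were paired. It was 0.040 between Snf2l KO 1 and WT 1, -0.106 between Snf2l KO 1 and WT 2, 0.258 between Snf2l KO 2 and WT 1 and 0.097 between Snf2l KO 2 and WT 2. Leaving out Snf2l KO replicate 2 gave a median of -0.032 and 26 positive values among the 79 genes, leaving out WT replicate 1 gave -0.018 and 36, and leaving out WT replicate 2 or Snf2l KO replicate 1 gave 0.151 and 0.185, with 69 each.

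In the median, the libraries of 1 genotype differed more than the genotypes did. WT replicate 2 was above WT replicate 1 in 74 of the 79 genes, with a median log2 difference of 0.145, and Snf2l KO replicate 2 was above Snf2l KO replicate 1 in 75, with a median of 0.214. In 71 genes replicate 2 was higher in both genotypes. Over all tested genes these medians were 0.007 and -0.003. The exceptions in WT were Ndufb11, Ndufs3, Ndufs5, Sdha and Atp5g2, and those in Snf2l KO were Ndufb4, Uqcrc2, Cox7a1 and Atp5g2. Relative to the mean of the 4 libraries, the genes off chromosome 8 had median deviations of -0.107 in WT 1, 0.045 in WT 2, -0.059 in Snf2l KO 1 and 0.147 in Snf2l KO 2 on the log2 scale. The chromosome 8 genes had 0.098 and 0.253 in WT and -0.278 and -0.073 in Snf2l KO, so that they were higher in WT than in Snf2l KO and, within each genotype, higher in replicate 2.

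**Figure D4:**
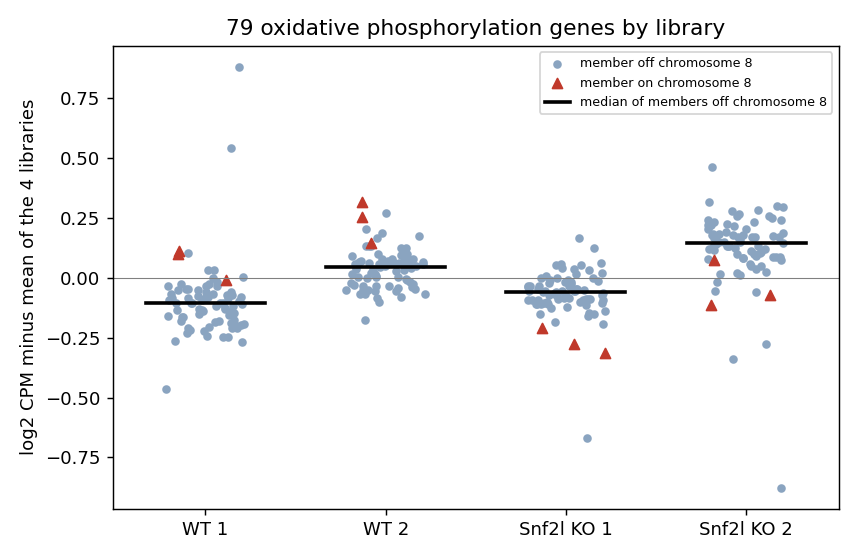
Log2 CPM of each of the 79 genes minus its mean over the 4 libraries, by library; points are genes off chromosome 8, triangles the 3 genes on it and lines the medians of the former. Medians are lower in replicate 1 than in replicate 2 of both genotypes (-0.107 and 0.045 in WT, -0.059 and 0.147 in Snf2l KO).

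The difference between replicates moved with gene length. The subunit genes are short, with a median length of 1478 bp against 4181.5 bp for all tested genes, and 59 of the 79 fell into the shortest of 5 length classes of about equal size (61 to 2331 bp). Over the 13840 genes, the Spearman correlation with length was -0.37 for the difference between the WT libraries, -0.433 for that between the Snf2l KO libraries and -0.117 for Snf2l KO over WT. These correlations are across genes of the same 4 libraries, and genes are not independent replicates. In the shortest class the median log2 differences were 0.109 (WT 2 over WT 1), 0.138 (Snf2l KO 2 over Snf2l KO 1) and 0.048 (Snf2l KO over WT). In the longest class (7072 to 123179 bp), which holds 0 subunit genes, they were -0.117, -0.161 and -0.047. After the trend with length was removed in each library, the median over the 76 genes was 0.032 and 47 of the 79 values were positive, Sdhc was called in addition to Ndufv3, and Cox4i1 and Ndufb7 kept their calls. The part of gene length in the values of single genes was not tested.

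**Figure D5:**
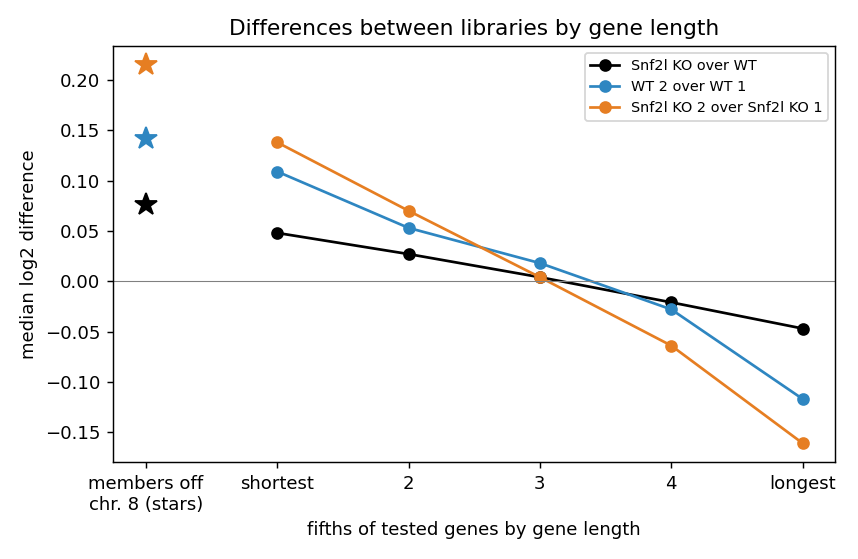
Median log2 difference for Snf2l KO over WT, WT 2 over WT 1 and Snf2l KO 2 over Snf2l KO 1 in 5 length classes of the 13840 tested genes (about 2768 genes each); stars on the left are the medians of the 76 subunit genes off chromosome 8. All 3 lines fall from the shortest to the longest class, and the stars (0.076, 0.141 and 0.215) lie above the values of the shortest class (0.048, 0.109 and 0.138).

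The genes that build, feed and regulate the respiratory chain were given by fixed lists. For the 13 mitochondrially encoded subunits no value was analysed here. Of 6 genes for electron carriers and related proteins, 0 were called. Cyc1, which encodes cytochrome c1 of complex III, was at 227 and 259 CPM in WT and 236 and 230 CPM in Snf2l KO (-0.06, SE 0.092), and Cycs, which encodes cytochrome c, was at 9.26 and 8.61 against 9.31 and 9.96 CPM (0.11, SE 0.148). The assembly factors were not called either. These were 15 factors for complex I, 10 for complexes II and III, 21 for complex IV and 5 for complex V, with median log2 fold changes of -0.023, 0.022, 0.011 and -0.092. The 2 complex IV factors on chromosome 8 were lower in both Snf2l KO libraries. Pet100 had a log2 fold change of -0.54 (SE 0.167, adjusted p = 0.0559) and Coa6 of -0.28 (SE 0.142, adjusted p = 0.2705). All 5 of the complex V factors had negative fold changes, from -0.197 to -0.027.

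Of 17 citric acid cycle enzymes, 1 was called higher. Idh2, the mitochondrial NADP-dependent isocitrate dehydrogenase, was at 43.9 and 52.3 CPM in WT and 64.1 and 67.8 CPM in Snf2l KO (0.45, SE 0.107, adjusted p = 0.0139). Without WT replicate 1 it was not called (0.335, adjusted p = 0.272). The median over the 17 was 0.046. Of 17 tested regulators of mitochondrial biogenesis, 1 was called lower. Tefm, which promotes elongation by the mitochondrial RNA polymerase, was at 40.4 and 43.7 CPM in WT and 30.6 and 29.4 CPM in Snf2l KO (-0.49, SE 0.106, adjusted p = 0.00806), and it was not called without WT replicate 2 (-0.431, adjusted p = 0.098). Among 6 hypoxia-linked regulators of respiration, 2 were called higher and the median was 0.696. Beside Ndufa4l2, Bnip3 was called, which promotes mitophagy. It was at 8.38 and 8.74 CPM in WT and 26.9 and 24.9 CPM in Snf2l KO (1.60, SE 0.131, adjusted p = 4.65e-06). Pdk1, which inhibits pyruvate dehydrogenase, was at 192 and 188 CPM in WT and 207 and 218 CPM in Snf2l KO (0.16, SE 0.086, adjusted p = 0.295), and Higd1a, a small protein of the inner mitochondrial membrane, had a log2 fold change of 0.26 (SE 0.136). The hypoxia-linked list was written with earlier results of these libraries known, so that its direction is not independent evidence.

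Markers of other cell types were given beside these values. Of 7 fibroblast markers 5 were tested and all 5 had positive fold changes, of which Col1a1 (log2 fold change 1.41, adjusted p = 9.18e-05) and Col3a1 (2.44, adjusted p = 0.00138) were called higher. The summed level of the list was 13.4 and 11.3 CPM in WT and 25.0 and 25.8 CPM in Snf2l KO. Of the untested markers, Lum was at 0 counts in all 4 libraries and Dcn at 0 to 2 counts. Of 4 primitive endoderm markers 3 were called higher, with summed levels of 12.8 and 13.6 CPM in WT and 20.5 and 21.3 CPM in Snf2l KO. Whether such cells were present was not tested, and neither was any part of them in the values of the subunit genes.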

How the data were processed

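Poly(A) RNA-seq libraries of WT and Snf2l KO mESCs (2 each) were compared. The authors demultiplexed with bcl2fastq 2.17, aligned reads to mm10 with HISAT2 through QuasR and counted reads per UCSC Known Gene, without normalization. The deposited table holds whole-number counts per Entrez gene, for 4 libraries of 13771642 to 15608803 counts, and, as another deposited column, a length per gene. The labels name a stranded TruSeq kit and the study's methods the TruSeq RNA kit v2, and the strand setting of the counting is not given in the sources used here. Depth limits precision most for the genes with the fewest counts (as low as 13).

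Symbols and positions were matched by Entrez identifier to RefSeq (GRCm38.p6) for 24570 of 24594 genes, which hold 99.9% of the counts. Exon overlaps and near-identical copies were taken from GENCODE (GRCm38). The analysis ran edgeR 4.0.16 in R 4.3.3, using filterByExpr (minimum count 10), TMM factors (0.989 to 1.006), and glmQLFit and glmQLFTest in their legacy form, with genotype as the only term. Tests were two-sided, and the Benjamini-Hochberg adjustment covered all 13840 tested genes, with calls at an adjusted p under 0.05. The SE was obtained from the fold change and the F statistic, and 95% intervals used 14.55 degrees of freedom. CPM were computed from TMM-scaled library sizes, log2 CPM per library with a prior count of 2, and SD over the 2 libraries of a genotype. An exact permutation test of 2 against 2 libraries cannot give a two-sided p below 0.333, so none was used. The procedure was tested on simulated counts for WT against Snf2l KO over 13819 genes, in which 200 genes were changed. With no gene changed, 0 of 13779 were called.

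The subunit genes, the pathway and marker lists and the motifs were chosen with earlier results of these data known. The genes named were Smarca1, all called subunit genes, those on chromosome 8, the highest and lowest of each complex per kb in WT, alternative isoforms, genes under the count minimum, Cyc1 and Cycs, and called genes of the lists. The result of 1 gene under this rule is not reported here. Other named subunit genes were chosen after their values were seen, as were Pdk1, Higd1a and the marker genes. The alternatives tried were DESeq2 1.42.0, scaling by RLE, by the upper quartile or by library size alone, a stricter and a looser filter, and a replicate block. Others were chromosomes 8 and Y left out, the chromosome 8 shift removed, a length trend removed per library with a smooth (lowess) curve, and each library left out.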

Additional observations from a re-analysis of the deposited data

How the results depend on the processing

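Of all tested genes, 25.1% were called with the replicate block, 13.9% with the length trend removed and 24.6% with both. Of these calls 46.4%, 47.1% and 49.1% were higher. The combination of both was chosen after seeing the data. With the block and with both, the share called higher was larger among the 79 subunit genes than among all tested genes. With the length trend removed it was smaller, as in the main fit. The count of subunit genes called higher (1) was 22 with the replicate block, 2 with the length trend removed and 12 with both. It ranged from 0 to 16 when 1 library was left out, with 16 without Snf2l KO replicate 1 and 0 without any other library. The count called lower (2) was 1 with upper-quartile scaling, 4 with the replicate block, 6 with the block and the length trend removed, 0 with chromosomes 8 and Y left out, 0 with the chromosome 8 median removed, and 1 to 2 with 1 library left out. The median log2 fold change ranged from -0.032 to 0.185 off chromosome 8 and from -0.455 to -0.249 on it when 1 library was left out. With the chromosome 8 shift removed, the median on chromosome 8 became 0.169 by construction, Cox4i1 0.169, Ndufb7 0.088 and Ndufa13 0.385. Ndufa13 was also reversed without Snf2l KO replicate 1 (0.003, adjusted p = 0.992), and ranged down to -0.282 without Snf2l KO replicate 2. Of the alternative values for 9 single genes (Smarca1, Ndufv3, those on chromosome 8 and the called genes of the pathway lists), 116 kept their direction and side of the threshold, 9 lost the call, 4 were reversed and 1 gained the call (Ndufa13, with the block and the length trend removed).

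The replicate numbers are not stated to mark a shared culture or day, and 2 pairs cannot establish pairing. Deviations of same-numbered libraries correlated at 0.196 over all tested genes and at 0.33 over the subunit genes. The block left 1 residual degree of freedom and raised the genes called from 1274 to 3471, and to 3410 with the length trend removed as well. Without the block, 750 were called with DESeq2, 574 with chromosomes 8 and Y left out, 663 with the chromosome 8 shift removed and 1928 with the length trend removed. Of the called genes 43.4% were higher, and 64.5% with chromosomes 8 and Y left out or 67.4% with the chromosome 8 shift removed. The cause of these differences was not tested. Depth limits the genes with under 150 counts in every library (Ndufs5, Cox6b2, Cox7a1 and Atp5g2).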
